A study of Pan troglodytes with 8 samples.

Results

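The step out of the radial glia state was examined in sorted cells of chimpanzee cerebral organoids by setting 4 radial glia libraries against 4 libraries of committed cells. The series held 8 libraries and all 8 were used. Of 35382 genes tested, 1071 were called higher in committed cells with all 4 committed libraries above all 4 radial glia libraries, and are called switched-on here. Another 1415 were called lower with the opposite separation and are called switched-off.

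All groups came from SandraA, a Pan troglodytes induced pluripotent stem cell line, seeded in the presence of a rho kinase inhibitor, grown as whole spheres, embedded in Matrigel and collected at week 8, give or take 3 days. The radial glia side pooled apical radial glia (aRG, 2 libraries) and basal radial glia (bRG, 2 libraries). The committed side pooled basal intermediate progenitors (bIP, 2 libraries) and BCL11B-positive neurons (N, 2 libraries). All 4 populations share the line, the age and this culture, and the labels set the groups apart by cell type alone. The labels used here name no antibodies for the sort and do not say whether replicates came from separate organoids. A single line stands for the species, and the error behind each p-value is that between 2 libraries of a population, which may be technical.

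Radial glia are the stem cells of the developing cortex. They span the wall with long processes, hold contact with a matrix-rich basal surface, and are kept from differentiating by Notch signalling, SOX2 and HES repressors. When a daughter commits, proneural transcription factors are switched on, Notch targets are shut, the cell cycle is left after few or no further divisions, and REST, a repressor of neuronal genes, is lowered. An intermediate progenitor is the transit state in which a neuronal programme has begun while division is still possible.

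Levels are read counts relative to library size (CPM) after TMM scaling, which evens out libraries of different composition, and pairs of values are given in the order replicate 1, replicate 2. Differences are on the log2 scale from edgeR's quasi-likelihood fit with 1 coefficient per population, as the mean of bIP and N minus the mean of aRG and bRG. Each population therefore weighs the same. A call is an adjusted p under 0.05 after Benjamini-Hochberg adjustment over all 35382 genes. Levels per gene length were not used here, so CPM is compared between libraries and not between genes.

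Committed cells were called higher for 1583 genes (4.47% of those tested) and radial glia for 1740 (4.92%). All 4 committed libraries stood above all 4 radial glia libraries for 1990 genes (5.62%), and the reverse held for 2482 (7.01%). Both conditions together gave the 1071 switched-on genes (3.03%) and the 1415 switched-off genes (4.00%). The median difference was 1.34 over switched-on genes and −2.08 over switched-off genes, beside −0.05 over all genes tested. These 2 medians are fixed by the rule that chose the genes. Among genes called higher in committed cells, 512 had overlapping libraries, against 325 among those called higher in radial glia. Because bIP itself has to clear radial glia, the rule leaves out genes that rise late: MAPT, the axonal microtubule protein, was called (difference 1.57, SE 0.29, adjusted p = 0.00389), yet bIP at 244 and 162 CPM did not clear bRG at 156 and 353. The count of genes called higher in committed cells was 1034 without bRG replicate 1.

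Library totals were 24649971 to 33245892 counts. Switched-off genes held 9.35% to 12.4% of the counts of radial glia libraries and 2.22% to 4.01% of those of committed libraries. Switched-on genes held 6.78% to 9.68% and 15.2% to 17.9% respectively. MALAT1, a nuclear RNA, held 3.61% to 8.57% and was higher in replicate 1 of every population. Defining markers of radial glia were higher in every radial glia library than in any committed library, except SLC1A3, which overlapped. Those of neurons were higher in every committed library than in any radial glia library, but not all were highest in N. RBFOX3 was lower in N (154 and 121 CPM) than in bIP (178 and 223). MAP2 overlapped between N (985 and 978 CPM) and bIP (913 and 1339). EOMES, the intermediate progenitor factor, stood at 1357 and 1540.3 CPM in bIP but also at 49.1 to 184 CPM in radial glia libraries, and the basal radial glia markers HOPX and FAM107A were no higher in bRG than in aRG (HOPX 33.5 and 28.2 against 41.9 and 49.7 CPM). In sorted bulk RNA, fewer cells of a type and less RNA per cell cannot be told apart, and this holds for every level below.

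The stem cell identity genes were switched off almost as a block. Of 19 radial glia identity genes tested, 17 were called higher in radial glia and 16 were separated, beside 4.92% and 4.00% of all genes, with a list median of −3.04. SOX2, the core transcription factor of neural stem cells, stood at 958 and 850.0 CPM in aRG, 696 and 477 in bRG, 83.2 and 72.6 in bIP, and 24.98 and 11.7 in N. Its lowest radial glia library was thus 5.74 times its highest committed library (difference −4.27, SE 0.27, adjusted p = 1.76e-06). HES1, the Notch-driven repressor of proneural genes, stood at 374 and 226, 172 and 112, 13.2 and 22.9, and 4.14 and 2.89 CPM in the same order (difference −4.69, SE 0.29, adjusted p = 1.76e-06). VIM, the intermediate filament of radial processes, fell from 669 to 1289 CPM over radial glia libraries to 153 and 167 CPM in bIP and 32.8 and 54.9 in N. PAX6, the dorsal progenitor factor, cleared the rule narrowly. Its levels were 228 and 158 CPM in aRG, 176 and 145 in bRG, 122 and 100.6 in bIP, and 15.3 and 6.00 in N, so bIP lay close under bRG and the fall was mostly in N. The identity genes without a call were EMX2 and LHX2, and SLC1A3 was called with overlapping libraries (27.1 to 236 CPM in radial glia, 0.773 to 44.8 in committed cells). SLC1A3 was higher in replicate 2 of every population.

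**Figure D1:**
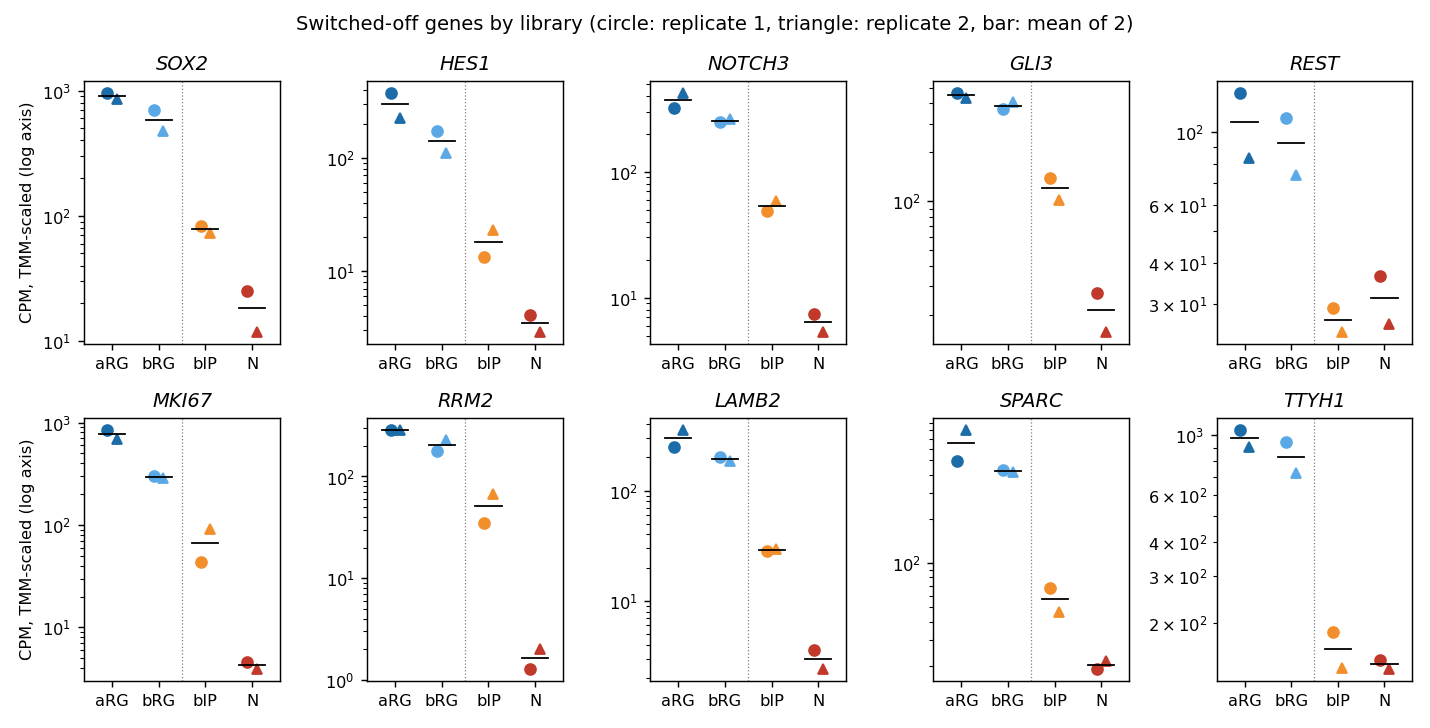
Levels of 10 switched-off genes in each of the 8 libraries, as TMM-scaled CPM on a log axis, by population (circle for replicate 1, triangle for replicate 2, bar for the mean of 2). Radial glia and committed libraries do not overlap for any of the 10, REST and TTYH1 are close between bIP and N, and MKI67, RRM2, NOTCH3 and LAMB2 are far lower in N.

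Division genes made up the most complete of the switched-off groups. Of 26 mitosis genes, 25 were switched off (median −3.64), and NUSAP1, at no more than 2.40 CPM in any library, was not called. MKI67, the standard mark of cycling cells, stood at 851 and 684 CPM in aRG, 302 and 287 in bRG, 43.3 and 90.4 in bIP, and 4.56 and 3.93 in N. Every committed library lay under every radial glia library, and bIP lay between radial glia and N (difference −4.82, SE 0.26, adjusted p = 1.05e-06). CDC20, which starts anaphase, showed the same order at 100.2 to 302 CPM in radial glia, 10.6 and 17.1 in bIP, and 2.98 and 3.75 in N. Among the 12 largest falls of switched-off genes averaging 10 CPM or more over radial glia were other division genes: TROAP (difference −5.25, SE 0.33), the kinesin KIF18B (−4.81, SE 0.35), the DNA helicase PIF1 (−4.77, SE 0.27) and the mitotic kinase AURKB (−4.76, SE 0.31). DNA replication genes followed with 18 of 25 switched off, 21 called higher in radial glia and a median of −1.45. RRM2, which makes deoxynucleotides for replication, stood at 178 to 289 CPM in radial glia, 34.99 and 66.9 in bIP, and 1.28 and 1.99 in N. MCM2 and PCNA were called, but their libraries overlapped, with bIP replicate 2 at 19.4 and 59.8 CPM inside the range of radial glia. G1 regulators had a median of −0.38, and 5 of 19 were called higher in radial glia, beside 4.92% of all genes. CDK2, E2F1 and RBL1 were switched off, and none of the 19 was switched on. CCND1 and BTG2, also on this list, had no reads in any library and were not tested. The ribosomal protein gene RPL18 had none either. Whether a gene without reads in any library was silent or was not counted cannot be told apart here. CDKN2D, an inhibitor of the G1 kinases, was called higher in committed cells with overlapping libraries (13.5 to 39.1 CPM in radial glia, 26.3 to 82.3 in committed cells), and no G1 regulator was called higher there without aRG replicate 1, bRG replicate 1 or bIP replicate 1.

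Of 24 Notch pathway genes, 9 were called higher in radial glia and 6 of them switched off, 3 were called higher in committed cells and 2 of them switched on, and 12 were not called. The switched-off genes were 3 receptors, LFNG and the effectors HES1 and HEYL, while the effectors HEY1 and HEY2 had overlapping libraries and HES4 and HES6 were among those not called. The effector HES5 had no reads in any library and was not tested, and may not have been counted. The receptor NOTCH3 stood at 321 and 421 CPM in aRG, 246 and 262 in bRG, 48.4 and 58.3 in bIP, and 7.39 and 5.31 in N (difference −4.06, SE 0.21, adjusted p = 9.17e-07). NOTCH1 fell less (difference −1.91, SE 0.23, adjusted p = 0.000228), and NOTCH2 fell by 1.99. LFNG, the glycosyltransferase that tunes Notch receptors, stood at 33.4 and 37.6 CPM in aRG and at 1.25 to 9.09 in committed cells, and HEYL fell as well. DLL3, an inhibitory Notch ligand, went the other way at 11.5 and 16.5 CPM in aRG, 17.9 and 37.7 in bRG, 211 and 492 in bIP, and 52.2 and 79.1 in N (difference 2.94, SE 0.33, adjusted p = 0.000124). It peaked in bIP and stayed above radial glia in N. DLL1, the activating ligand, was not called (49.5 to 120.3 CPM in radial glia, 60.9 to 180.5 in committed cells, adjusted p = 0.537). NUMBL, a Notch antagonist, was switched on (33.9 to 51.1 CPM against 83.2 to 110.1), and its relative NUMB was not called.

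Growth factor, hedgehog and Hippo signalling genes were largely switched off. Of 35 FGF, BMP, hedgehog and Hippo genes, 25 were called higher in radial glia and 22 were switched off (median −2.03). For Wnt genes these counts were 8 and 7 of 27 (median −0.47), and the difference between the lists was not tested. ETV5, a transcription factor induced by FGF signalling, stood at 132 and 156 CPM in aRG, 109.8 and 137 in bRG, 4.70 and 13.5 in bIP, and 3.91 and 1.55 in N. Its lowest radial glia library was 8.14 times its highest committed library (difference −4.74, SE 0.38, adjusted p = 1.09e-05). SPRY4, a feedback inhibitor of the same pathway, fell from 20.9 to 26.5 CPM to 1.86 to 2.98. GLI3, the hedgehog-pathway factor that patterns the dorsal forebrain, stood at 367 to 464 CPM in radial glia, 139 and 102 in bIP, and 27.3 and 15.6 in N. BMP7 (difference −3.66, SE 0.27) and the BMP target ID4 (−3.44, SE 0.20) were switched off as well. YAP1, the effector of Hippo signalling, and its target CCN2 were switched off, CCN2 having no reads in N. AMOTL2, which holds YAP in the cytoplasm, was the 1 member switched on (27.8 to 48.1 CPM against 56.4 to 180.0). Of the Wnt genes, the receptor FZD8 (difference −4.29, SE 0.25), the nuclear factor TCF7L1 (−3.45, SE 0.25) and the secreted inhibitor SFRP1 (−2.97, SE 0.29) were switched off, and none was switched on.

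Genes of the extracellular matrix, its receptors and the basement membrane were switched off in 21 of 38 cases, with 24 called higher in radial glia and a median of −1.59. LAMB2, a laminin chain of basement membranes, stood at 246 and 356 CPM in aRG, 202 and 184 in bRG, 28.3 and 29.3 in bIP, and 3.56 and 2.42 in N (difference −4.70, SE 0.23, adjusted p = 9.17e-07). The 2 sides were 6.29 times apart at their nearest libraries. SPARC, a matrix-binding glycoprotein, stood at 417 to 808 CPM in radial glia, 67.9 and 46.9 in bIP, and 19.1 and 21.7 in N. The collagen-binding integrin ITGA2 fell from 93.0 to 153 CPM to 1.39 to 24.5. NCAN, a proteoglycan of the neuronal matrix, was the 1 switched-on member (291 to 475 CPM against 553 to 779, difference 0.89, adjusted p = 0.0156). With aRG replicate 1, bRG replicate 1 or bIP replicate 2 left out, its adjusted p was 0.063, 0.0685 or 0.0712. Mesenchymal transcripts moved with this group: the summed level of the 18 mesenchymal, vascular and immune genes was 343 to 2079 CPM over radial glia libraries and 78.6 to 201 over committed ones. COL3A1, a fibrillar collagen with the largest fall among named switched-off genes, stood at 56.3 and 554 CPM in aRG, 23.5 and 58.7 in bRG, 2.33 and 16.1 in bIP, and 1.04 and 0.604 in N. Its difference of −5.34 (SE 0.77, adjusted p = 0.000747) became −4.13 without aRG replicate 2 and −6.33 without bIP replicate 2. COL1A1 behaved alike (−4.51, and −3.62 or −5.49 without those libraries). Of the immune markers, AIF1 had 0 reads in all 8 libraries, CX3CR1 reached 1.92 CPM, and CSF1R stood at 19.4 to 35.04 CPM in radial glia and 20.6 to 30.6 in committed cells. The highest mesenchymal sum was in aRG replicate 2, and without that library 21 matrix genes were called higher in radial glia. The part of mesenchymal cells in the matrix result was not tested.

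Most markers that name basal radial glia were switched off with the rest of the state. Of 20, 14 were switched off and 15 called higher in radial glia (median −1.78), beside 4.00% and 4.92% of all genes. FAM107A stood at 31.9 and 41.8 CPM in aRG, 35.4 and 31.6 in bRG, 4.19 and 4.44 in bIP, and 4.45 and 4.88 in N, a fall complete in bIP (difference −2.97, SE 0.25, adjusted p = 1.67e-05). PTN, a secreted growth factor, fell from 378 to 872 CPM to 28.1 to 138. PTPRZ1, its receptor, was the exception and was switched on (358 to 473 CPM against 566 to 1082, difference 0.83, adjusted p = 0.0153). Leaving out aRG replicate 1, bRG replicate 1, bIP replicate 2 or N replicate 1 gave adjusted p-values of 0.0546, 0.061, 0.0667 and 0.0552. Astroglial genes split. The chloride channel TTYH1 (difference −2.59, SE 0.19) and the secreted chaperone CLU (−2.62, SE 0.24) were among 8 of 20 switched off. NFIA and NFIB, transcription factors that act in both glia and neurons, were switched on. NFIA stood at 2166 and 1986 CPM in aRG, 2031 and 2092 in bRG, 7208 and 6292 in bIP, and 5166 and 3921 in N (difference 1.42, SE 0.16, adjusted p = 0.000135). NFIB rose from 633 to 894 CPM to 1696 to 3270.3, and their relative NFIX was not called (30.3 to 60.1 CPM against 33.6 to 70.2).

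Immediate early and stress genes were higher in radial glia in 9 of 21 cases, all 9 separated, and none was called higher in committed cells. FOS, a transcription factor induced within minutes of a stimulus, stood at 61.0 and 37.2 CPM in aRG, 48.3 and 36.2 in bRG, 0.466 and 2.24 in bIP, and 5.07 and 0.906 in N. EGR1 stood at 37.5 to 263 CPM in radial glia and 5.28 to 10.7 in committed cells, higher in replicate 1 of both radial glia populations. The heat-shock gene HSPA1B has a near-identical copy, HSPA1A, and its reads are uncertain. Apical junction genes had a median of −0.39. Of 20, CRB2, NECTIN3, PROM1 and TJP1 were switched off, AFDN, an actin-linking junction protein, was switched on (304 to 389 CPM against 575 to 921), and 15 were not called. Of 28 glycolysis and one-carbon genes, 4 were called: the serine synthesis enzymes PHGDH (315 to 562 CPM against 39.7 to 114) and PSAT1, and ALDH1L1, were switched off, and the glycolytic enzyme PFKM was switched on, with adjusted p of 0.0647 and 0.0685 when aRG replicate 1 or bRG replicate 1 was left out. Without those libraries 6 genes of this list were called higher in radial glia. Of 24 cilium genes 4 were switched off and 1, the anterograde motor subunit KIF3A, was switched on, and those called higher in radial glia numbered 1 without bRG replicate 1 or bIP replicate 2 and 2 without N replicate 1. None of 27 ribosomal protein genes was called by edgeR. For comparison with these lists, 4.00% of all genes were switched off and 3.03% switched on.

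Transcription factors that drive neurogenesis were switched on in many cases. Of 24 tested, 15 were called higher in committed cells and 12 were switched on, beside 4.47% and 3.03% of all genes, with a median of 1.69. SOX4 stood at 1289 and 1541 CPM in aRG, 1518 and 1723 in bRG, 4255 and 4401 in bIP, and 5732 and 3886 in N (difference 1.59, SE 0.17, adjusted p = 0.000112). Its close relative SOX11 stood at 739 and 832, 582 and 662, 2867 and 3776, and 1515 and 899.7 CPM in the same order, so N replicate 2 came within 1.08 times of aRG replicate 2. Both were well above 0 in radial glia. MYT1, a zinc-finger factor that represses Notch targets, was nearer to an on-off pattern at 14.2 to 21.6 CPM in radial glia, 239 and 226 in bIP, and 130.5 and 54.1 in N (difference 2.90, SE 0.28, adjusted p = 4.06e-05). BHLHE22, a bHLH factor of projection neurons, stood at 26.1 to 67.9 CPM in radial glia and 212 to 836 in committed cells, the highest being N replicate 1, and its difference of 3.12 became 2.46 without that library. NEUROG2, the proneural initiator of cortical neurons, rose from 92.5 to 159.7 CPM to 184 to 386 and remained expressed in N. NEUROG1, its relative, had 78.7 and 40.4 CPM in bIP, 5.64 to 21.9 in radial glia, and no reads in N. It was called higher in radial glia in a contrast that averages bIP and N on the log scale, where the value for N rests on the prior count. PROX1 was the 1 switched-off member (12.4 to 42.8 CPM against 2.33 to 11.6). Intermediate progenitor genes did not hold as a list: 4 of 21 were switched on and 10 were lower in N than in bIP. EOMES was not called between the sides (difference 0.69, SE 0.35, adjusted p = 0.303), N lying at 31.2 and 10.96 CPM, under every radial glia library. It was called without bRG replicate 2 (difference 1.06, adjusted p = 0.0431) and with no low-count filter (0.655, adjusted p = 0.0187), and its difference was 2.72 with no population terms (adjusted p = 0.231), so over all alternatives its adjusted p ran from 0.0187 to 0.772.

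**Figure D2:**
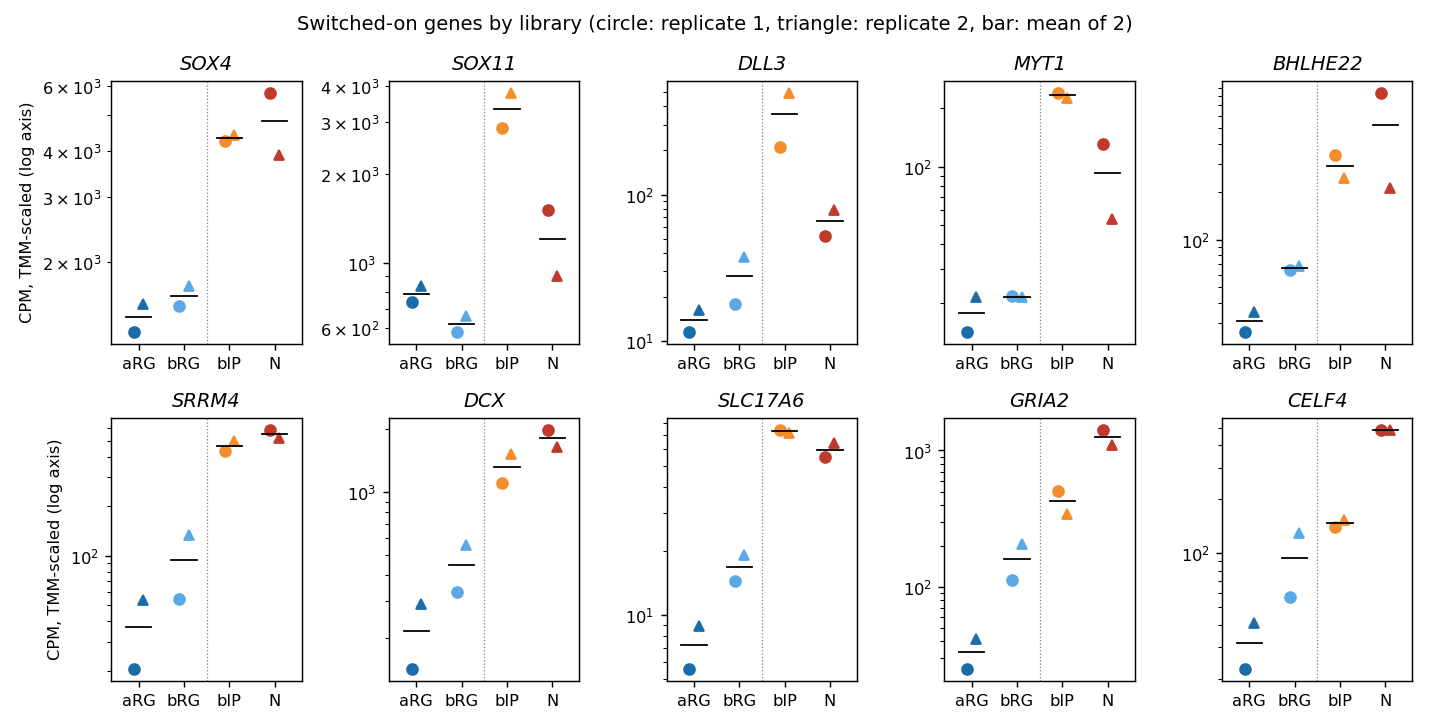
Levels of 10 switched-on genes in each of the 8 libraries, as TMM-scaled CPM on a log axis, by population (circle for replicate 1, triangle for replicate 2, bar for the mean of 2). All 4 committed libraries lie above all 4 radial glia libraries in each panel, SOX11 and DLL3 are highest in bIP, GRIA2 and CELF4 are highest in N, and SLC17A6 and SRRM4 are close between them.

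Neuronal genes of the cell body, synapse and membrane rose across the step. Of 23 general neuronal genes, 19 were called higher in committed cells and 13 switched on (median 1.94), and none was called higher in radial glia. DCX, a microtubule protein of migrating neurons, stood at 142 and 289.9 CPM in aRG, 334 and 561 in bRG, 1101 and 1526 in bIP, and 1988 and 1644 in N (difference 2.31, SE 0.26, adjusted p = 0.000129). The bRG libraries held more of it than the aRG libraries, and bIP held at least 1.96 times the highest radial glia library. RBFOX3, the gene of the NeuN antigen and a splicing factor, rose from 22.2 to 53.3 CPM to 121 to 223. Of 29 synaptic vesicle genes, 22 were called higher in committed cells and 12 switched on (median 1.71), and for 32 ion channel and receptor genes these counts were 21 and 12 (median 1.85). GRIA2, an AMPA receptor subunit, stood at 24.98 and 41.3 CPM in aRG, 112 and 206 in bRG, 508 and 342 in bIP, and 1419.9 and 1095 in N (difference 3.33, SE 0.27, adjusted p = 1.05e-05). The groups did not overlap, but the populations were spread over both sides. SLC17A6, the vesicular glutamate transporter of excitatory neurons, stood at 5.59 to 19.2 CPM in radial glia, 74.2 and 71.5 in bIP, and 55.3 and 64.2 in N.

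Microtubule and axon growth genes were switched on in 16 of 30 cases, with 21 called higher in committed cells (median 0.96). STMN3 (difference 1.86, SE 0.22) and MAP2 (1.38, SE 0.19) were among them. Tubulins divided by isotype. TUBA1A, the main neuronal alpha-tubulin, was switched on at 1546 to 3523 CPM in radial glia against 4037 to 7399 in committed cells (difference 0.99, adjusted p = 0.028), while TUBA1B (difference −1.09, SE 0.22) and TUBB6 (−3.04, SE 0.36, and −3.67 without bIP replicate 1) were switched off. TUBA1A and TUBA1B are near-identical and can share reads, and the adjusted p of TUBA1A was 0.0809, 0.0751, 0.0649 and 0.0799 with aRG replicate 1, bRG replicate 1, bIP replicate 2 or N replicate 1 left out. Axon guidance genes were switched on in 7 of 35 cases and off in 2, beside 3.03% and 4.00% of all genes, and 20 were not called. DCC, the netrin receptor, stood at 6.69 and 8.96 CPM in aRG, 8.95 and 17.3 in bRG, 65.4 and 119 in bIP, and 92.2 and 74.5 in N, a gap of 3.79 times between the nearest libraries. UNC5C, another netrin receptor that mediates repulsion, was switched off (14.6 to 15.9 CPM against 2.24 to 8.97), with an adjusted p of 0.0534 when bIP replicate 2 was left out. Of the relatives of UNC5C, UNC5A was switched on, and UNC5B and UNC5D were not called. The semaphorin co-receptor NRP2 rose from 24.8 to 85.5 CPM to 229 to 415, and the ephrin EFNB1 fell from 628 to 1007 to 95.1 to 307. Of 20 deep-layer and projection neuron factors 6 were switched on. BCL11B stood at 42.9 to 113 CPM in radial glia, 286 and 348 in bIP, and 488 and 589.6 in N, and the N libraries were chosen as positive for it.

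**Figure D3:**
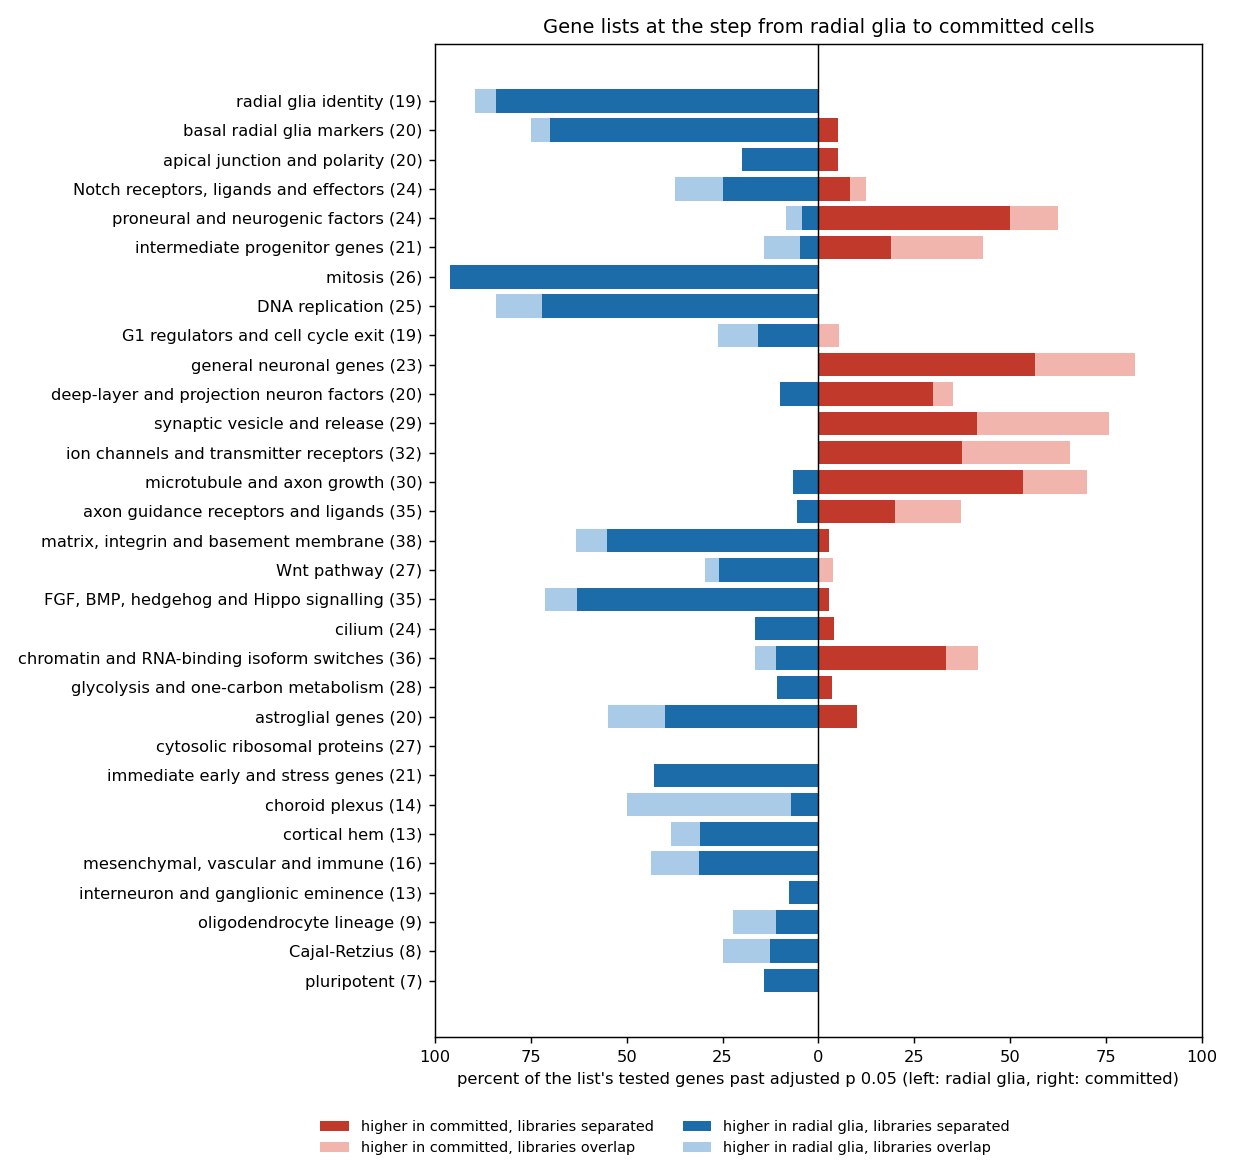
Share of the tested genes of each of 31 lists that passed an adjusted p of 0.05, in percent, to the left where radial glia were higher and to the right where committed cells were higher (number of tested genes in brackets, dark bars for genes whose libraries do not overlap, pale bars for called genes whose libraries overlap). Mitosis and radial glia identity lie almost wholly to the left, and general neuronal, synaptic and channel genes wholly to the right with many overlapping libraries.

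Regulators of neuronal splicing and chromatin changed in both directions. Of 36 genes tested, 12 were switched on and 4 switched off, beside 3.03% and 4.00% of all genes. SRRM4, the activator of neuronal microexons, stood at 20.5 and 53.5 CPM in aRG, 54.2 and 133 in bRG, 431 and 501 in bIP, and 584 and 521 in N (difference 3.11, SE 0.34, adjusted p = 0.000105). SRRM3, its paralog, rose from 9.99 to 53.8 CPM to 105 to 195, and the splicing factor RBFOX2 rose from 156 to 321 to 532 to 1159. REST, whose own transcript is a splicing target of SRRM4, went the opposite way at 131 and 83.1 CPM in aRG, 110.2 and 73.9 in bRG, 29.2 and 24.6 in bIP, and 36.5 and 26.1 in N (difference −1.77, SE 0.23, adjusted p = 0.000389). Neither was called between N and bIP. HMGA2, a chromatin protein of early progenitors, fell from 299 to 717 CPM to 14.0 to 149. In the BAF chromatin remodelling complex, the progenitor subunit SS18 fell (46.5 to 61.7 CPM against 20.5 to 40.9, a call lost without bIP replicate 1), and SS18L1, its neuronal replacement, rose (66.5 to 86.0 against 113 to 141). Of the other BAF subunits listed, ACTL6A, PHF10, DPF1, DPF2, SMARCC1 and SMARCC2 were not called, and DPF3 was called with overlapping libraries. ACTL6B had no reads in any library and was not tested. PTBP2, the neuronal form of the splicing repressor PTBP1, was not called (92.7 to 111 CPM against 114 to 182, adjusted p = 0.0697). PTBP1 itself had no reads in any library and was not tested. For PTBP1 and ACTL6B, a silent gene and one not counted cannot be told apart. LIN28A was switched off, but at no more than 5.84 CPM, and its adjusted p passed 0.05 in 6 of the 8 fits that left out 1 library. Between 3 and 6 genes of this list were called higher in radial glia when 1 library was left out, 3 of them without bIP replicate 2.

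The rule of largest change among genes with a mean of at least 10 CPM on the higher side named RAB26, a GTPase of secretory vesicles, RPS6KL1, PPP1R16B, a phosphatase regulator, the neuronal pentraxin NPTX1, and MYT1L, a factor that silences other fates in neurons, on the switched-on side. RAB26 had the widest gap of these, at 30.0 to 78.1 CPM in radial glia and 320.2 to 749 in committed cells. RN7SL508P and MIR8485 were also named by the rule, but RN7SL508P is a copy of a repeated RNA and MIR8485 is a microRNA symbol, and their reads are uncertain. On the switched-off side the rule named NFATC4, a calcium-regulated transcription factor, at 244 to 410.1 CPM in radial glia, 49.1 and 50.9 in bIP and 2.01 and 3.88 in N. It also named TNFRSF12A, the TWEAK receptor, at 71.2 to 186 CPM against 0.604 to 8.74, and BST2 and TCIM. The switched-off genes that took most counts, which also depends on transcript length, were VIM, CKB, TTYH1, TMBIM6, HNRNPA2B1 and PHIP, and on the switched-on side these were MAP1B, TUBA1A, NFIA, SOX4, NFIB and SOX11. MAP1B, an axonal microtubule protein, stood at 3855 to 4295 CPM in radial glia, 4352 and 5302 in bIP, and 9123 and 8438 in N, its bIP libraries only just above radial glia. Its adjusted p was 0.0588 without bRG replicate 1 and 0.0907 without bIP replicate 2. PHIP and HNRNPA2B1 were likewise not called in 5 and 3 of the 8 fits that left out 1 library.

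What followed the step was described with the difference between N and bIP. The separation rule used the same bIP and N libraries and leaves out genes that change late, so these counts describe the chosen genes and are no independent test of whether a change was held. Over all genes 376 were called higher in N (1.06%) and 524 lower (1.48%). Of the 1071 switched-on genes, 26 were called higher in N (2.43%), 10 lower (0.934%), and 1035 were not called. Without the separation rule the picture differed: of all 1583 genes called higher in committed cells 186 were higher in N (11.7%) and 32 lower (2.02%), and of the 512 with overlapping libraries 160 were higher (31.2%). For 298 of the switched-on genes the 95% interval of the difference lay within 1 log2 unit of 0, so for most the data do not show that the level was held, only that no change was called. Of the 1415 switched-off genes, 285 were called lower still in N (20.1%), none was called higher, 1130 were not called, and 189 had an interval within 1 log2 unit. Of all 1740 genes called higher in radial glia 380 were lower in N (21.8%), and of the 325 with overlapping libraries 95 were (29.2%). The median difference between N and bIP was 0.39 for switched-on genes and −0.94 for switched-off genes, beside −0.10 over all genes. The counts for switched-on genes rest on few libraries: those higher in N numbered 41 without aRG replicate 1, 44 without aRG replicate 2, 54 without bRG replicate 1, 187 without bRG replicate 2, 8 without bIP replicate 1, 3 without bIP replicate 2 and 15 without N replicate 2. Those lower in N numbered 17, 20, 17, 16, 8, 0 and 3 without the same libraries. Switched-off genes lower in N numbered 191 to 381 over all such fits.

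**Figure D4:**
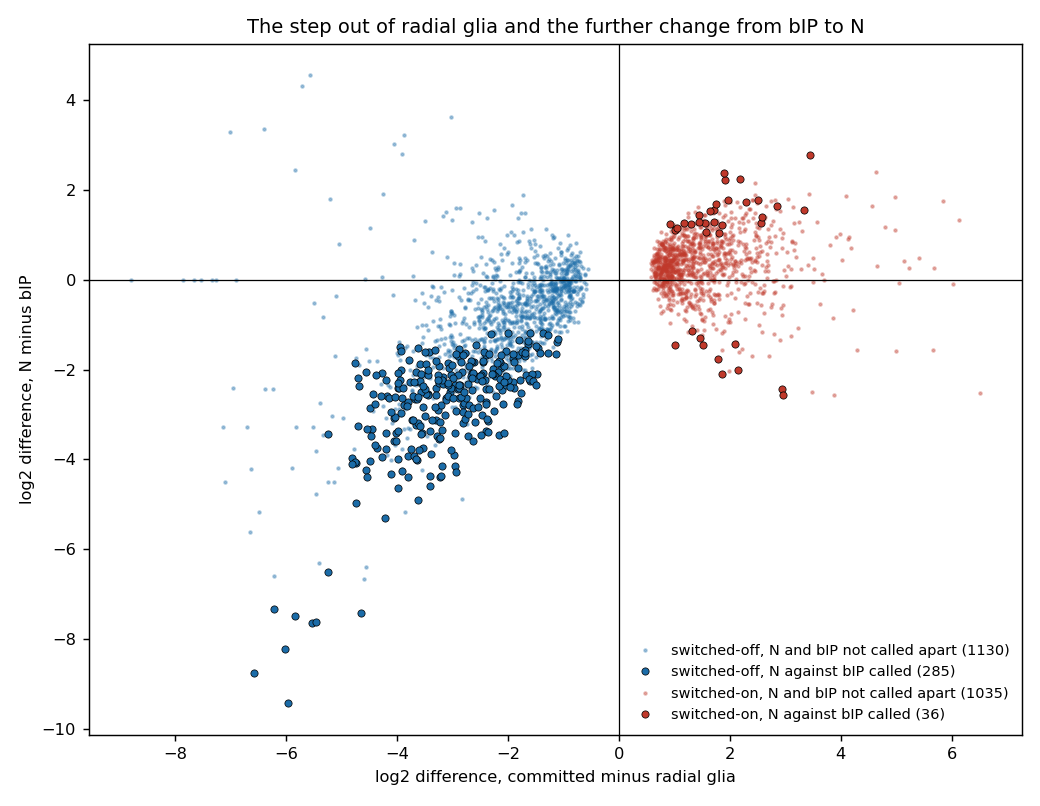
Each point is a switched gene, with its log2 difference between committed cells and radial glia on the x axis and between N and bIP on the y axis (ringed dark points are called between N and bIP). The 285 called switched-off genes all lie below 0, and the 36 called switched-on genes lie on both sides.

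Genes switched on and raised again in N included GRIA2 (difference between N and bIP 1.57, SE 0.35, adjusted p = 0.0359), the adhesion molecule NRCAM (104 and 133 CPM in bIP, 276 and 539.6 in N) and the RNA-binding protein CELF4 (141 and 153, then 483 and 488). GPR12, an orphan receptor, stood at 47.0 and 37.6 CPM in bIP and 142 and 151 in N. Genes switched on and then lowered included SOX11 (difference −1.46, SE 0.28, adjusted p = 0.0161), DLL3 (−2.42, SE 0.45, adjusted p = 0.014) and the semaphorin receptor PLXNA4. PLXNA4 stood at 21.6 to 64.4 CPM in radial glia, 535 and 917 in bIP, and 143 and 102 in N. The proton-gated channel ASIC1 (396 and 1123 CPM in bIP, 168 and 212 in N), the nicotinic receptor subunit CHRNB4 and the calcium-binding protein CABP7 fell likewise between bIP and N and stayed above radial glia. Switched-off genes lowered again in N were led by TCIM, RRM2, SELENBP1, the sphingosine receptor S1PR1, the transcription factor SALL1 and the mitotic cyclin CCNB2. SALL1 stood at 120.1 to 194 CPM in radial glia, 66.9 and 90.5 in bIP, and 3.29 and 4.23 in N (difference between N and bIP −4.39, SE 0.31, adjusted p = 0.000152). It fell further between bIP and N than before. Among switched-off genes of at least 10 CPM in radial glia whose sides lay at least 4 times apart, the smallest differences between N and bIP were those of the DNA repair gene EME1, the kinesin KIF24, the protease ADAMTS15, the TGF-beta effector SMAD3, FAM107A and SPRY4. SMAD3 stood at 44.5 to 73.3 CPM in radial glia, 9.40 and 10.7 in bIP, and 8.20 and 10.5 in N (difference −0.11, 95% interval −0.77 to 0.56). SMAD3 was named for its small difference, so this interval is no test of whether its level was held.

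**Figure D5:**
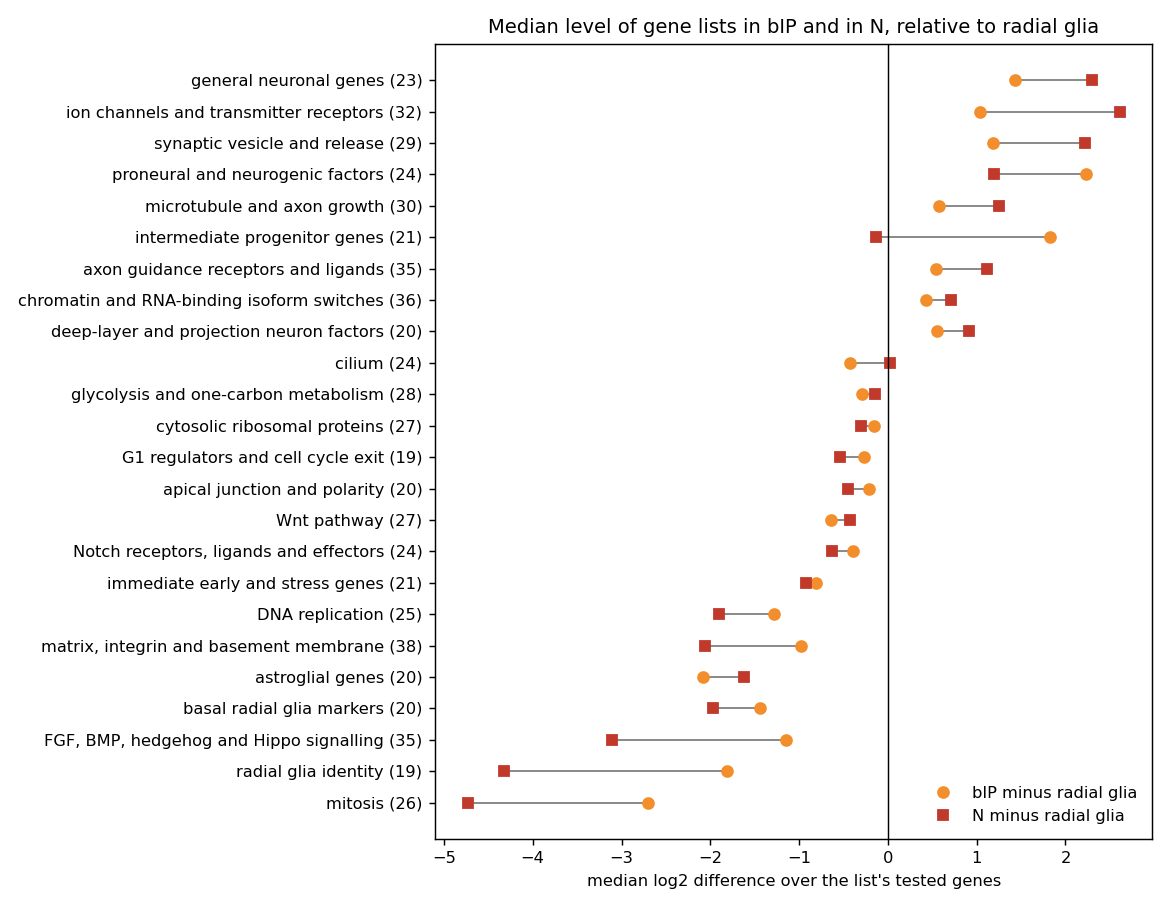
Median log2 difference of 24 gene lists from radial glia, for bIP (circles) and N (squares), with the number of tested genes in brackets. Proneural factors and intermediate progenitor genes have their higher median in bIP, whereas neuronal, synaptic and channel genes have theirs in N, and mitosis and radial glia identity genes are lowest in N.

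By list, the proneural factors had a median difference from radial glia of 2.23 in bIP and 1.19 in N, with 9 of 24 called lower in N than bIP and none higher. Ion channel and receptor genes ran the other way, at 1.04 in bIP and 2.61 in N, with 10 of 32 called higher in N. Mitosis genes stood at −2.71 in bIP and −4.73 in N, with 16 of 26 called lower in N, and radial glia identity genes at −1.82 and −4.32, with 13 of 19 called lower. Immediate early and stress genes were alike at −0.81 and −0.92, with none called between N and bIP. Within replicate 1 and replicate 2 taken apart, the list medians of the main contrast kept their sign for all of these lists. They were −3.79 and −3.62 for mitosis, 1.95 and 1.33 for proneural factors, and 2.47 and 1.52 for general neuronal genes. Elsewhere the sign changed for glycolysis and one-carbon (0.24 and −0.61), Cajal-Retzius (−0.30 and 0.17) and pluripotent genes (−1.45 and 0.12).

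The 2 radial glia populations were not called apart for any switched gene. Over all genes 1 was called between bRG and aRG (0.00283%), TTR, a choroid plexus transcript that was not a switched gene. At an unadjusted p under 0.05 there were 187 switched-on and 124 switched-off genes, and DESeq2 called 30 switched genes. The median difference between bRG and aRG was 0.25 for switched-on genes and −0.32 for switched-off genes, beside 0.02 over all genes. These medians use the radial glia libraries that also entered the rule. GRIA2 (112 and 206 CPM in bRG, 24.98 and 41.3 in aRG) and MKI67 (302 and 287 in bRG, 851 and 684 in aRG) show the direction, and neither was called.

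Markers of other cell types were mostly low, and none of their lists had a gene switched on. The collagens given above were an exception, and so was TTR, most of all in aRG. HTR2C reached 72.35 CPM and DCN 50.4, both in aRG replicate 2. In N replicate 1, RELN stood at 60.55 CPM and CDH5 at 28.1. TTR stood at 819 and 3092 CPM in aRG, 36.1 and 48.5 in bRG, 51.35 and 63.2 in bIP, and 15.6 and 24.5 in N. Choroid plexus genes summed to 103 to 3366 CPM in radial glia libraries and 56.8 to 101.4 in committed ones, 7 of 14 being called higher in radial glia and 1, AQP1, switched off. The highest was aRG replicate 2, and AQP1 had an adjusted p of 0.0858 without it. Of 13 interneuron and ganglionic eminence genes none was called higher in committed cells, and GAD1, GAD2, DLX2 and DLX5 did not pass 4.41 CPM in any library. Of 13 cortical hem genes 4 were switched off, with MSX2 lost without aRG replicate 1 (adjusted p = 0.0533), and of 8 Cajal-Retzius and 7 pluripotent genes 1 each was switched off (CXCR4 and LIN28A). Of 9 oligodendrocyte genes none was called higher in committed cells. The part of these cells in the switched-off genes was not tested.

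The use of strand in counting is not stated, and reads of overlapping genes may be mixed. Of the 150 genes the naming rule picked, 146 were matched by symbol to RefSeq's NHGRI_mPanTro3-v2.0 table, a newer build, and 50 of these overlap another gene there, among them PTN with DGKI, ITGA2 with MOCS2, TUBB6 with AFG3L2, EME1 with MRPL27 and LRRC59, PFKM with SENP1, CRB2 with DENND1A, NUMBL with COQ8B and CABP7 with ZMAT5. At the edge of the rule, the lowest committed library of C11orf96 (3.82 CPM) stood just above its highest radial glia library (3.81), and the lowest radial glia library of GAS2L1 (9.79) just above its highest committed library (9.78), and GAS2L1 was not called in 6 of the 8 fits that left out 1 library. GPATCH8 and FAM102A were separated as narrowly without a call. Just outside lay ATXN7L3B, ZKSCAN1, FAM177A1 and FREM2, of which FREM2 stood at 13.9 CPM in both bRG replicate 2 and bIP replicate 1.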

How the data were processed

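The authors deposited raw counts of reads by gene symbol, in 1 table on panTro6 and 1 on hg38, with STAR named in the submitters' processing notes. Its version, the annotation, the counter and the use of strand: not given in the sources used here. Per the labels' protocols, RNA of 10000 cells was amplified by a Smart-seq2 type method (12 to 17 PCR cycles) and tagmented, with no molecular identifiers named, so counts include PCR copies. The unnamed row (0.00545% to 0.00771% of counts) was left out.

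Counts on panTro6 were filtered with filterByExpr by population, scaled by TMM and fitted over all 8 libraries with edgeR 4.0.16 (glmQLFit, glmQLFTest) in R 4.3.3, with 4 residual degrees of freedom, a common biological coefficient of variation of 0.629 and two-sided tests. Each standard error (SE) is the log2 difference over the root of its F value. The script was tested on simulated data. Alternatives were the human table, DESeq2 1.42.0, its size factors, other filters, halved counts (mates of a pair may both be counted), a replicate block, no population terms, stricter rules, and each library left out. Members, the 31 gene lists (680 symbols, 679 in the table) and tests were chosen with earlier results of these data known. Named genes were the 12 largest changes of each direction among genes with a mean of at least 10 CPM on the higher side and a regular symbol, the 6 of highest CPM, up to 3 per list and direction by smallest p, up to 6 by change or constancy between N and bIP, 6 identity genes and the genes nearest the separation threshold. Genes given by value beyond this rule (MAPT, HOPX, SLC1A3, NUSAP1, MCM2, PCNA, CDKN2D, NOTCH1, LFNG, HEYL, DLL1, YAP1, CCN2, NFIX, NEUROG1, HSPA1B, TJP1, EMX2, LHX2, TTR, SS18L1, PTBP2 and markers of other cells) were chosen after their values were seen. Some genes the rule picked are not reported here. Promoter motifs were not analysed here.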

Additional observations from a re-analysis of the deposited data

Results flagged for a closer look

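In 290 groups of 4 libraries (145 named genes on each side), 20 had 1 library far from the other 3 by Dixon's test, and chance alone flags about 1 in 20 groups. All values are levels in CPM, given against the range of the other 3 libraries of the same side, and their cause was not tested.

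Collagen and hem genes stood out in aRG replicate 2, at 554 for COL3A1 (23.5 to 58.7), 941 for COL1A1 (102 to 155), 307 for COL1A2 (27.2 to 46.7) and 56.9 for RSPO2, a Wnt agonist (10.4 to 17.1). The same library was high for AQP1 at 34.3 (6.42 to 9.79) and S1PR1 at 69.9 (42.4 to 46.1). Collagens were also high in bIP replicate 2, at 16.1 for COL3A1 (0.604 to 2.33) and 34.6 for COL1A1 (5.2 to 5.83). That library was high for RBL1 at 28.9 (19.2 to 19.8), MAP2 at 1340 (913 to 985) and NUMBL at 110 (83.2 to 85.5).

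In bRG replicate 2, RN7SL508P was high at 15.6 (2.56 to 4.28) and CABP7 at 5.14 (2.75 to 3.07), while the junction gene NECTIN3 was low at 38.2 (56.3 to 59.8) and PROM1 at 41.7 (61.7 to 64.1). In aRG replicate 1, MSX2 was high at 6.1 (2.17 to 2.72) and MYT1 low at 14.2 (21.4 to 21.6). In N replicate 1, TUBA1A was high at 7400 (4040 to 4500) and the cilium gene BBS4 was low at 60.4 (79 to 81.5). TUBB6 was high in bIP replicate 1 at 14.6 (3.85 to 5.22).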

How the results depend on the processing

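No named gene changed direction under any alternative run. The human table tested 16353 genes and called 1027 switched-on and 1251 switched-off, sharing 791 of the 819 switched-on and 1061 of the 1096 switched-off genes it could test, with 16 switched-on genes lower in N. DESeq2 called 97 switched-on genes higher and 25 lower in N, 467 switched-off genes lower and 6 higher in N, and 30 between bRG and aRG. Without a filter these counts were 109, 27, 481, 5 and 73, and with at least 5 CPM in 2 libraries 17 switched-on genes were lower and 2 switched-off genes higher in N. With 2 groups and no population terms, 850 genes were higher in committed cells and 920 in radial glia, 906 of the latter being separated, and 21 of the 150 named genes were no longer called. When all 4 pairs of populations had to be called, 80 switched-on and 186 switched-off genes were left, and a gap of at least 2 times left 129 and 479. DESeq2 size factors and halved counts moved none of the counts over all genes by over 1.5 times, and halved counts moved 2 of the counts for gene lists. Counts for gene lists under these alternatives were chosen after seeing the data.

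With a replicate block, 2436 genes were higher in committed cells, 149 switched-on genes were higher and 30 lower in N, 447 switched-off genes were lower and 5 higher in N, and 10 differed between bRG and aRG. The labels pair replicates by number only. Deviations of same-numbered libraries correlated at 0.0462 to 0.104, and the third principal component (14.2% of variance) separated the numbers.

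Leaving out each library in turn gave 1034 to 1422 genes higher in committed cells and 1405 to 1815 in radial glia, 732 to 1141 switched-on and 1207 to 1419 switched-off genes. Switched-on genes numbered 3 to 187 higher and 0 to 20 lower in N, switched-off genes 191 to 381 lower and 0 to 3 higher, and 0 to 23 switched genes differed between bRG and aRG. A population left with 1 library is assumed to vary like the others. With 4 residual degrees of freedom and no molecular identifiers, small changes and genes of few counts were not resolved.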
